A study of Mus musculus with 6 samples.

Results

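Chromatin remodellers and histone-modifying enzymes were followed as 46 genes, out of 27594 gene names with a probe on the array, in mouse embryonic fibroblasts at day 8 of reprogramming. The genes were chosen by name from their known place in these complexes, with earlier results of these data known. Each was read through its brightest probe on average, and all 46 had a probe that was well above background on all 6 arrays, as were 51.0% of all gene names. They comprise 2 ISWI ATPases, 13 subunits of BAF (SWI/SNF), 4 CHD remodellers outside NuRD, 8 NuRD subunits, 2 ATPases of the INO80 family, 7 histone deacetylases, 7 histone demethylases and 3 members of writer complexes.

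Remodellers of these families use ATP to slide, evict or exchange nucleosomes, and the complexes differ mainly in which ATPase and which alternative subunits they carry. Deacetylases and demethylases remove marks from histone tails, and acetyltransferases and the methyltransferase complexes built around WDR5 add them. In fibroblasts under reprogramming these enzymes are known both as helpers and as barriers, because somatic genes have to be closed and pluripotency genes opened.

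The study asks what Gadd45a, a stress-inducible growth-arrest gene, does to expression during reprogramming. In the Gadd45a group the fibroblasts had been infected with SKO and Gadd45a. In the G39A group they had been infected with SKO and G39A, described as a negative mutant of Gadd45a. In the Flag group, the control, they had been infected with SKO and Flag, so that every culture carried SKO and none was uninfected. Each group has 2 arrays, numbered replicate 1 and replicate 2, and the treatment text gives 6 days of culture in serum medium with LIF after infection. SKO is left unexplained in the labels (reprogramming studies mostly use the letters for Sox2, Klf4 and Oct4, which Pou5f1 encodes). The labels also name no vector or promoter, and do not say that replicates are separate cultures. P-values therefore measure the spread between these arrays. The labels mention no sorting, so each array may read a mixture of cells, in which fewer cells of a type and less RNA per cell cannot be told apart.

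The replicate numbers differed across the whole array. All replicate 2 arrays were on 1 slide and the replicate 1 arrays on 2 others, Gadd45a and Flag together and G39A alone, so slide and replicate number cannot be told apart. Between 57.0% and 62.9% of spots were well above background on each array, and no spot was saturated. Pou5f1, the core pluripotency factor, had scaled signals of 3.7 to 4.6 on the arrays labelled SKO replicate 2, where it was not well above background, against 3835 to 5522 on the arrays labelled SKO replicate 1, a difference of at least 228-fold. If the O of SKO is mouse Pou5f1 and its probe reads the introduced copy, replicate 2 goes against its label. Sox2 had scaled signals of 15.6 to 22.5 in replicate 2, well above background on 1 array. In replicate 1 it had 8.3 to 10.9 and was dim on every array. The same reading of the S as mouse Sox2 would thus go against replicate 1 as well. Whether the Pou5f1 and Sox2 probes read introduced copies was not tested. The Gadd45a probe gave 2061 and 540 in the Gadd45a group, 2269 and 1210 in the G39A group and 2378 and 1013 in the Flag group (replicate 2, then replicate 1). The Gadd45a group was thus the lowest in each number, so this probe shows no excess of Gadd45a there. Whether it reads the introduced copy was not tested. Klf4 was between 13927 and 20814 on all 6 arrays.

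Cell type markers are given for replicate 2 against replicate 1, where 60.1% of all genes tested passed the threshold used below, an adjusted p of 0.05 in limma. Of 16 fibroblast markers tested, 12 rose in replicate 2 and none fell, with summed signals of 1064700 to 1114640 on the replicate 2 arrays against 641798 to 720252 on the replicate 1 arrays, and Thy1 and Col3a1 were bright throughout. Of 11 epithelial markers tested, 7 fell and 2 rose. Cdh1 and Epcam, which define epithelial cells, were dim on all 3 replicate 2 arrays and well above background on all 3 replicate 1 arrays, while summed epithelial signals were 4863 to 7479 in replicate 2 against 6414 to 6727 in replicate 1. Of 16 proliferation genes 14 fell and 1 rose, with sums of 51014 to 59178 in replicate 2 against 94507 to 99414 in replicate 1. Of 13 macrophage markers tested 8 rose and 3 fell, with sums of 6426 to 10106 in replicate 2 against 5502 to 6692 in replicate 1, and Ptprc was dim on all 6 arrays. Of 5 muscle markers tested 3 rose and 1 fell, with sums of 18287 to 21547 in replicate 2 against 2810 to 3027 in replicate 1, and Myod1 and Myog were dim on all 6 arrays. Of 5 endothelial markers tested 2 rose and 1 fell, with sums of 870 to 1462 in replicate 2 against 1033 to 1047 in replicate 1, and Pecam1 and Cdh5 were dim on all 6 arrays. Of 7 pluripotency markers tested 3 fell and 1 rose, with sums of 10048 to 10720 in replicate 2 against 12149 to 17365 in replicate 1. Each sum is set largely by its brightest probes and can hide the other genes of its list. In replicate 2 against replicate 1, Klf2 gave 8529 to 9187 against 6298 to 9549, and Krt7 2424 to 3735 against 403 to 434. Actc1 gave 13964.5 to 16355 against 1799 to 2104. Of the macrophage markers, Lyz2 gave 4452 to 7820 against 726 to 840, and Laptm5 43.5 to 105 against 2942 to 4122. The part of these cell markers in the differences below was not tested.

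Replicate 2 was compared with replicate 1 over the 3 groups, each giving 1 pair of arrays. Of the 46 members, 24 passed the threshold of an adjusted p of 0.05 in limma's test (52.2%, where 60.1% of the 16032 genes tested passed it). Of these 17 were higher in replicate 2 and 7 were lower, while 34.4% of all genes tested were higher and 25.7% lower. With quantile normalization 21 members passed (58.9% of all genes), 12 of them higher (32.6% of all genes) and 9 lower (26.4% of all genes). With an array left out the count was 17 without either Flag array (48.7% of all genes passed), 13 without either Gadd45a array (47.7% of all genes) and 14 without either G39A array (45.4% of all genes). Of the 24 members, 11 passed in all of these fits and with quantile normalization, namely Smarca1, Smarca2, Smarcc1, Smarcd3, Chd7, Mta2, Hdac7, Kdm5b, Kdm2b, Kdm6a and Kdm6b, and each of the other 13 lost its call when an array of at least 1 group was left out. The median member differed by 0.20 (log2) and the median gene by 0.11, and with quantile normalization by 0.10 and 0.07.

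The median size of the members' differences, regardless of sign, was 0.31 (log2), against 0.45 over all genes tested. Both the threshold and a 1.5-fold difference were met by 8 of the 46 members (17.4%), where 39.7% of all genes tested met both. These 8 were Smarca1, Hdac7, Kdm5b, Smarcd3 and Kdm6b, higher in replicate 2, and Chd7, Smarca2 and Kdm6a, lower in replicate 2. Kdm2b, at 0.58, lay just under 1.5-fold, and Kdm6b, at 0.61, just over it. The arrays of replicate 2 and replicate 1 did not overlap for 36 of the 46 members, and for 70.5% of all genes tested.

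**Figure D1:**
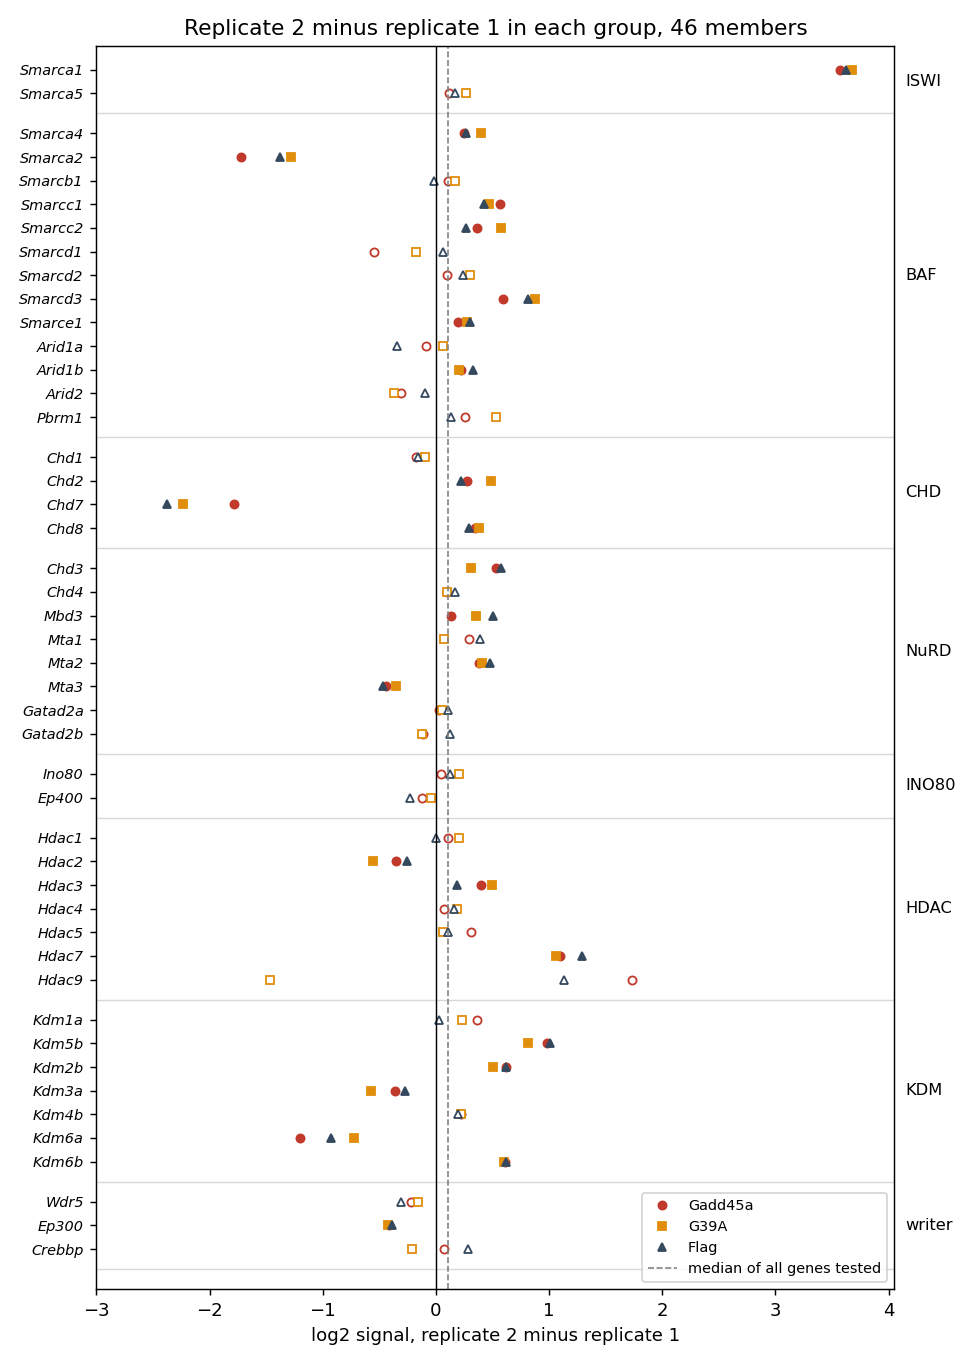
Difference in log2 signal, replicate 2 minus replicate 1, of each of the 46 members in the Gadd45a (circles), G39A (squares) and Flag (triangles) groups; filled symbols mark the 24 members past limma's threshold, and the dashed line the median of all genes tested (0.11). Smarca1 stands near 3.6 in all 3 groups, Chd7 and Smarca2 lie lowest among the called members, and Hdac9 is the member whose groups lie furthest apart.

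**Figure D2:**
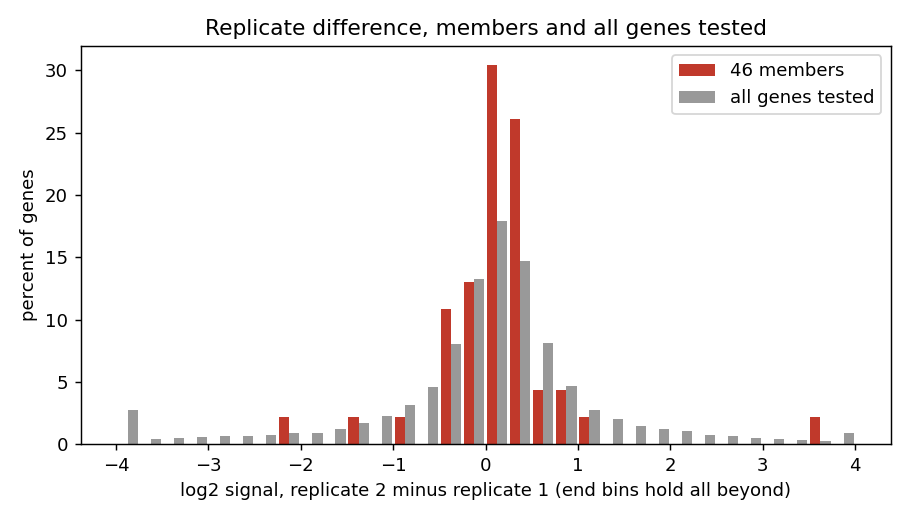
Percent of genes by difference in log2 signal, replicate 2 minus replicate 1, for the 46 members (red) and all 16032 genes tested (grey); the end bins hold all values beyond them. The members crowd between -0.5 and 0.5, with Smarca1 far to the right and Chd7 and Smarca2 to the left.

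Of the ISWI ATPase genes, Smarca1 rose in replicate 2 and Smarca5 did not pass the test. Smarca1 encodes SNF2L, an ATPase of remodellers such as NURF, and it had the largest difference of the 46 members in either direction. Its scaled signal was 1351, 1679 and 1738 on the replicate 2 arrays of Gadd45a, G39A and Flag, against 113, 131 and 141 on the replicate 1 arrays of the same groups. Every replicate 2 array was far above every replicate 1 array. The difference was 3.63 ± 0.08 (log2, SE, n = 3 pairs), or 12.3-fold higher, with limma's adjusted p = 5.19e-05, and the probe lies on chromosome X, 45163226 to 45163285 (mm9), starting at base 3316 of its transcript. The other Smarca1 probe, which starts at base 3636, gave 3.62. Smarca5, the SNF2H gene, whose protein drives most ISWI remodellers, gave 2820, 2640 and 2733 in replicate 2 against 2599, 2193 and 2436 in replicate 1, a difference of 0.18 with adjusted p = 0.109 in limma. Its 3 other probes gave 0.22, 0.01 and -0.10.

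BAF carries either BRG1 (Smarca4) or BRM (Smarca2) as its ATPase. Smarca2 fell in replicate 2, while the rise of Smarca4 was small and did not hold with quantile normalization. Smarca2 gave 822, 1332 and 1312 on the replicate 2 arrays of Gadd45a, G39A and Flag, against 2721, 3246 and 3410 on the replicate 1 arrays. All replicate 2 values were below all replicate 1 values, and the Gadd45a array was the lowest of each number. The difference was -1.46 ± 0.12, or 2.76-fold lower in replicate 2, with adjusted p = 0.000812 in limma (probe on chromosome 19, 26852394 to 26852453, mm9). A second probe, well above background on all 6 arrays, gave -1.90, and another was well above background on the replicate 1 arrays alone. Smarca4 gave 25715, 23744 and 25082 in replicate 2 against 21603, 17997 and 20880 in replicate 1, a difference of 0.31 with adjusted p = 0.0297 in limma. With quantile normalization Smarca4 differed by 0.09 and no longer passed (adjusted p = 0.35 in limma).

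Promoter windows are printed for Smarca1 and Smarca2, the ISWI and BAF ATPase genes that passed with opposed differences of over 1.5-fold, and for Kdm5b and Kdm6a, the demethylase genes with the largest opposed differences. Each runs from 250 bases before to 50 bases after a transcription start, as held in RefSeq (GRCm38.p6), on the strand of the gene. Capitals mark the GC box, GGGCGG or its reverse complement CCGCCC, a motif that Sp and Klf factors are known to bind.
Smarca1, chrX:47892564-47892863, minus strand: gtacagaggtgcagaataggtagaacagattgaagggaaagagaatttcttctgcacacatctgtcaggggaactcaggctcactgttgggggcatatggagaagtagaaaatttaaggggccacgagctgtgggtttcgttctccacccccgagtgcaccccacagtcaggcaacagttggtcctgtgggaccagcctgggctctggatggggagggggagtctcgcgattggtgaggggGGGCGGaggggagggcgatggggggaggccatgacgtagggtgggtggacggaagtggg
Smarca2, chr19:26604910-26605209, plus strand: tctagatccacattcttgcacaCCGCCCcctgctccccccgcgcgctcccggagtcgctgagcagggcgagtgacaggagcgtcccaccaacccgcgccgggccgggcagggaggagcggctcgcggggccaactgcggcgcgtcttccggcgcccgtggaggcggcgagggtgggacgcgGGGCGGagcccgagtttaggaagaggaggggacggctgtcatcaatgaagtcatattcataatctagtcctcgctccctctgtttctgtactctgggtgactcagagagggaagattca
Kdm5b, chr1:134559928-134560227, plus strand: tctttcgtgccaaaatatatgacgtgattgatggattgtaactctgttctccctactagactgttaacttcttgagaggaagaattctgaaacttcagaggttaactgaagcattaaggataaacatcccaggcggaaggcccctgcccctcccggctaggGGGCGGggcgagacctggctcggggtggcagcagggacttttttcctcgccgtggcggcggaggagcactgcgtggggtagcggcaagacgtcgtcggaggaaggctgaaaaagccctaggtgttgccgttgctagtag
Kdm6a, chrX:18162325-18162624, plus strand: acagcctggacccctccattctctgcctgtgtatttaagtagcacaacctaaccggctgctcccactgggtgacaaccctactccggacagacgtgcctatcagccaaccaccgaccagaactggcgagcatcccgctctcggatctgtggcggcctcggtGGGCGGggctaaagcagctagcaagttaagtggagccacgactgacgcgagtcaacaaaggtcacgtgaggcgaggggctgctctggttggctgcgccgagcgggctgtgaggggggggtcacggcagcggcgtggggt
All 4 windows hold a GC box, and the Smarca2 window holds 2. Windows were found for 35 of the 46 members, 48 windows in all, since a gene can have several starts. A GC box lay in 83.3% of them, against 35.7% of the 32851 windows of all genes. The median member window held 29 CG pairs and the median window of all genes 7. All 46 members had signal well above background on every array, while the windows of all genes were not limited to such genes. Shares among genes with signal were not computed, so these contrasts say nothing particular about the members. A TATA box (TATAAA or TTTATA) lay in 6.25% of member windows and 13.6% of all windows, a CCAAT box (CCAAT or ATTGG) in 31.2% and 37.4%, and an E box (CACGTG) in 6.25% and 7.15%. A match is only a run of letters, and the Smarca1 window, with 9 CG pairs, and the Smarca2 window, with 29, both hold it.

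Of the 13 BAF members 6 rose in replicate 2, 1 fell and 6 did not pass the test, with a median of 0.25. As 60.1% of all genes tested passed, this count and those of the other families below are a description. Smarcd3 encodes BAF60C, an alternative subunit known from heart and muscle, and it gave 1656, 1842 and 1998 in replicate 2 against 1099, 1002 and 1140 in replicate 1. The numbers did not overlap, and the difference was 0.76 ± 0.09 (adjusted p = 0.003 in limma). Its alternatives Smarcd1 (BAF60A) and Smarcd2 (BAF60B) differed by -0.22 and 0.21 and did not pass the test. Smarcc1 and Smarcc2, the BAF155 and BAF170 scaffold genes, rose by 0.49 and 0.40. Smarce1 (BAF57) and Arid1b (BAF250B) rose by 0.26 and 0.25, and neither passed with quantile normalization (0.12 and 0.17). Another probe of each, also well above background on all 6 arrays, gave 0.44 for Smarce1 and 0.04 for Arid1b. Arid1a (BAF250A) differed by -0.12, the core gene Smarcb1 (SNF5) by 0.09, and the PBAF genes Arid2 and Pbrm1 by -0.26 and 0.31, none of which passed. Arid2 passed with quantile normalization, at -0.35 (adjusted p = 0.0424 in limma), Arid1a with normexp and quantile normalization together, at -0.28 (adjusted p = 0.0269 in limma), and Pbrm1 with probes above background on all 6 arrays (adjusted p = 0.0476 in limma), while Smarcb1 changed sign with quantile normalization, at -0.07.

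**Figure D3:**
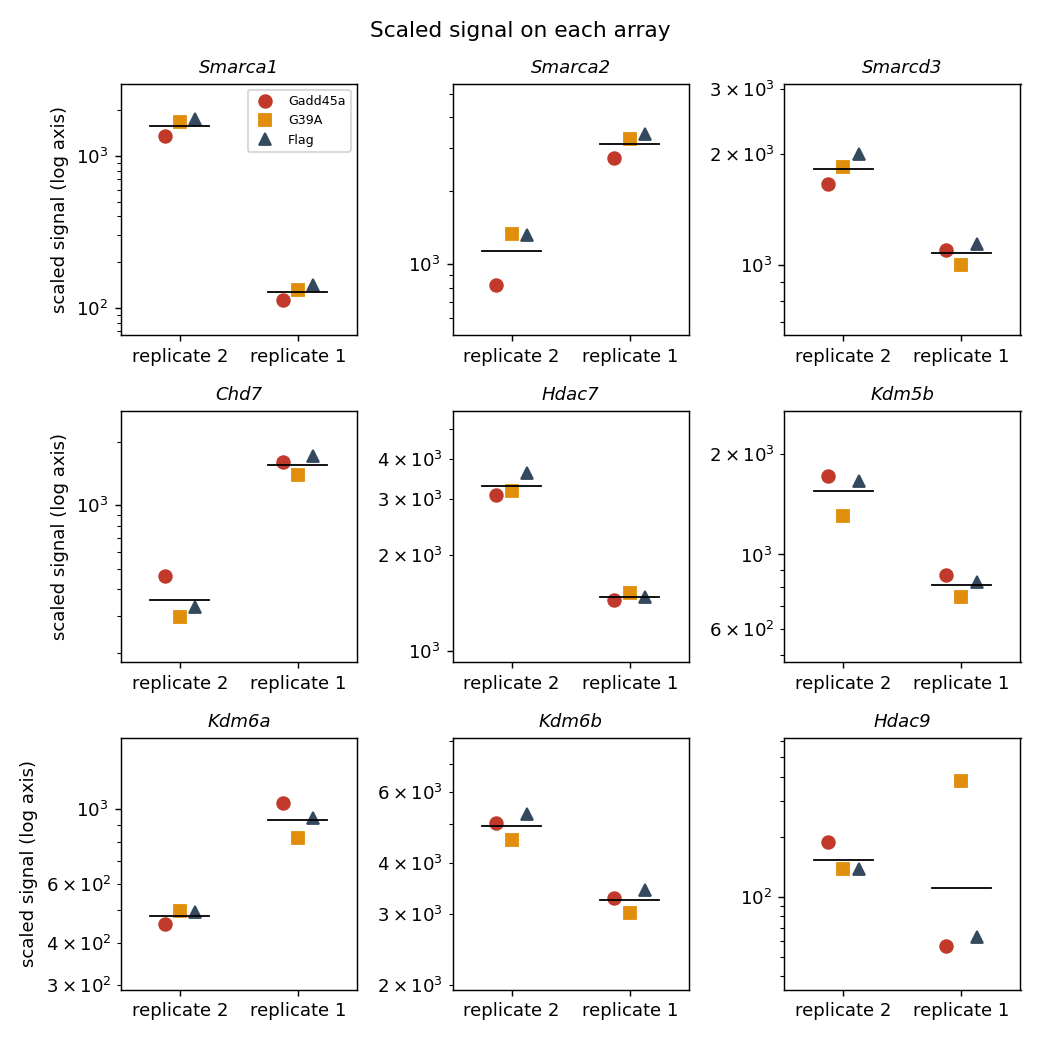
Scaled signal on a log axis of the 8 members past both the threshold and 1.5-fold, and of Hdac9, on the 3 replicate 2 arrays (left) and the 3 replicate 1 arrays (right) of each panel; circles are Gadd45a, squares G39A and triangles Flag, and bars are geometric means. The replicate numbers do not overlap in any of the first 8 panels, and in the Hdac9 panel the G39A replicate 1 array lies above all others.

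Among CHD remodellers outside NuRD, Chd7 fell and Chd2 and Chd8 rose. Chd7, the gene mutated in CHARGE syndrome, encodes an enhancer-bound remodeller needed in neural crest. It gave 462, 295 and 330 on the replicate 2 arrays of Gadd45a, G39A and Flag, against 1597, 1384 and 1711 on the replicate 1 arrays. The highest replicate 2 array, that of Gadd45a, was still well below the lowest replicate 1 array. The difference was -2.13 ± 0.14, or 4.38-fold lower in replicate 2 (adjusted p = 0.000461 in limma; probe on chromosome 4, 8793693 to 8793752, mm9). The 2 other Chd7 probes were well above background on at most 2 arrays and do not check it. Chd8, whose protein binds beta-catenin, rose by 0.34 and did not pass with quantile normalization (0.19, adjusted p = 0.0762 in limma). Chd2 rose by 0.33, and Chd1, whose protein reads trimethylated lysine 4 of histone H3, differed by -0.14 and did not pass.

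NuRD joins a CHD remodeller with the deacetylases HDAC1 and HDAC2, and 3 of its 8 members listed here rose, 1 fell and 4 did not pass. The MTA scaffold genes moved apart. Mta2 gave 7980, 7737 and 8009 in replicate 2 against 6128, 5828 and 5767 in replicate 1, a rise of 0.42 (adjusted p = 0.00961 in limma). Mta3 gave 3442, 3028 and 3206 in replicate 2 against 4684, 3866 and 4431 in replicate 1, a difference of -0.42 (adjusted p = 0.0101 in limma). The second probe of each, also well above background on all 6 arrays, gave 0.28 for Mta2 and -0.92 for Mta3. Neither gene's replicate numbers overlapped, and Mta1 differed by 0.25 without passing. Chd3 (Mi-2alpha) rose by 0.47 and Mbd3, the subunit with a methyl-binding type domain, by 0.33, and neither passed with quantile normalization (0.28 and 0.31). Chd4 (Mi-2beta), Gatad2a and Gatad2b differed by 0.12, 0.06 and -0.04. None of these 3 passed, Chd4 and Gatad2a changed sign with quantile normalization (-0.02 and -0.08), and the 2 other Chd4 probes gave 0.10 and -0.19. Ino80, the ATPase of its complex, and Ep400, the ATPase of the TIP60 complex, differed by 0.13 and -0.13 and did not pass. The other 2 Ep400 probes well above background throughout gave 0.05 and 0.40.

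Of the 7 deacetylases 2 rose, 1 fell and 4 did not pass. Hdac7 is a class IIa deacetylase that shuttles between nucleus and cytoplasm and restrains MEF2 factors. It gave 3096, 3181 and 3620 on the replicate 2 arrays of Gadd45a, G39A and Flag, against 1446, 1522 and 1480 on the replicate 1 arrays. The arrays within a number lay close together and the numbers did not overlap, with a difference of 1.15 ± 0.09, or 2.22-fold higher in replicate 2 (adjusted p = 0.000713 in limma; probe on chromosome 15, 97623442 to 97623501, mm9). The class IIa genes Hdac4 and Hdac5 differed by 0.14 and 0.16 and did not pass. Among class I genes, Hdac3, the deacetylase of NCOR and SMRT, rose by 0.36 and Hdac2 fell by 0.39. Hdac1, its close paralog, differed by 0.10 (-0.10 with quantile normalization) and did not pass, but its probe lies on chromosome 17 (mm9) while RefSeq places the gene on chromosome 4, so it may read a near-identical copy and its value is uncertain.

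Hdac9, also of class IIa, differed in opposite directions between groups. It gave 188, 137 and 137 on the replicate 2 arrays of Gadd45a, G39A and Flag, against 56.6, 378 and 62.7 on the replicate 1 arrays. The G39A replicate 1 array was the highest of all 6, and the other 2 replicate 1 arrays were the lowest. That array was alone on its slide, so array and slide cannot be told apart. The fitted difference was 0.47 ± 0.66 (adjusted p = 0.574 in limma). With the mean of its probes it was 1.08 (adjusted p = 0.0117 in limma). Without either G39A array it was 1.43 (adjusted p = 0.0136 in limma), and without either Gadd45a array -0.17. The 2 other Hdac9 probes that were above background on 3 or 4 arrays were not high on the G39A replicate 1 array and were higher in replicate 2 in all 3 groups, by means of 1.14 and 1.65. These probes also enter the mean of its probes given above, so that value rests partly on dim signal.

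Of the 7 demethylases 3 rose, 2 fell and 2 did not pass. Kdm5b (JARID1B) removes methyl groups from lysine 4 of histone H3, and it gave 1717, 1307 and 1658 in replicate 2 against 870, 744 and 827 in replicate 1. The G39A array was the lowest of each number, and the numbers did not overlap. The difference was 0.93 ± 0.08, or 1.91-fold higher in replicate 2 (adjusted p = 0.00116 in limma; chromosome 1, 136485365 to 136485424, mm9). Kdm1a (LSD1), which acts on the same residue, differed by 0.21 and did not pass.

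The demethylases of lysine 27 of histone H3, the mark of Polycomb repression, moved apart. Kdm6a (UTX) gave 454, 498 and 496 in replicate 2 against 1042, 820 and 940 in replicate 1. Kdm6b (JMJD3) gave 5024, 4555 and 5273 in replicate 2 against 3288, 3010 and 3433 in replicate 1. Every replicate 2 array was below every replicate 1 array for Kdm6a and above it for Kdm6b. Kdm6a differed by -0.95 ± 0.12 (1.93-fold lower, adjusted p = 0.00314 in limma; chromosome X, 17852163 to 17852222, mm9). Kdm6b differed by 0.61 ± 0.07 (1.53-fold higher, adjusted p = 0.0028 in limma). Of the lysine 9 demethylases Kdm3a (JMJD1A) fell by 0.40, and Kdm4b (JMJD2B) differed by 0.21, did not pass (adjusted p = 0.0644 in limma), and passed with quantile normalization, at 0.23, and under 4 other alternatives. Kdm2b (FBXL10), a lysine 36 demethylase that also recruits a variant Polycomb complex to CpG islands, rose by 0.58 (adjusted p = 0.00389 in limma).

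Of the 3 writer members only Ep300 passed. Ep300 (p300) gave 748, 780 and 800 in replicate 2 against 994, 1047 and 1046 in replicate 1. It fell by 0.41 (adjusted p = 0.00985 in limma) with no overlap, and its other probe above background throughout gave -0.12. Crebbp (CBP), the related acetyltransferase, differed by 0.05, with the G39A group lower and the other groups higher in replicate 2, and passed with the mean of its probes (0.32, adjusted p = 0.0459 in limma). That mean includes a probe well above background on only 5 arrays, at 0.74, and a probe above background throughout, at 0.18. Wdr5, the common subunit of MLL and SET1 methyltransferases, differed by -0.23 (adjusted p = 0.0639 in limma), did not pass, and passed with quantile normalization (-0.27, adjusted p = 0.0333 in limma) and under 4 other alternatives.

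Pairs of members that are alternatives or close paralogs were also compared as ratios within each array, where the subtraction of a percentile cancels but a normalization that depends on intensity does not. For 8 of 9 pairs the ratio did not overlap between replicate numbers, and each of these 8 had p = 0.1 in a two-sided exact permutation test, which is the smallest p that 3 arrays against 3 allow and cannot pass 0.05. Since 70.5% of all genes tested did not overlap on their own, and the share among other gene pairs was not computed, the count says nothing particular about these pairs. The log2 ratio of Smarca1 to Smarca5 was higher in replicate 2 by 3.44, and that of Mta2 to Mta3 by 0.84. The ratio of Smarca2 to Smarca4 was lower by a log2 change of -1.77, that of Kdm6a to Kdm6b by -1.56, that of Hdac2 to Hdac1 by -0.49, with the doubt on the Hdac1 probe, and that of Ep300 to Crebbp by -0.46. Arid1b to Arid1a and Chd3 to Chd4 changed by 0.37 and 0.35, the former with the brighter Arid1b probe, where the other differed by only 0.04. Smarcc1 to Smarcc2 changed by 0.08 (exact p = 0.5), with arrays that overlapped and a sign that turned under another scaling, to -0.09. The other 8 ratios kept their sign under all 4 scalings tried, but that of Hdac2 to Hdac1 ranged from -0.49 to -0.0735.

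**Figure D4:**
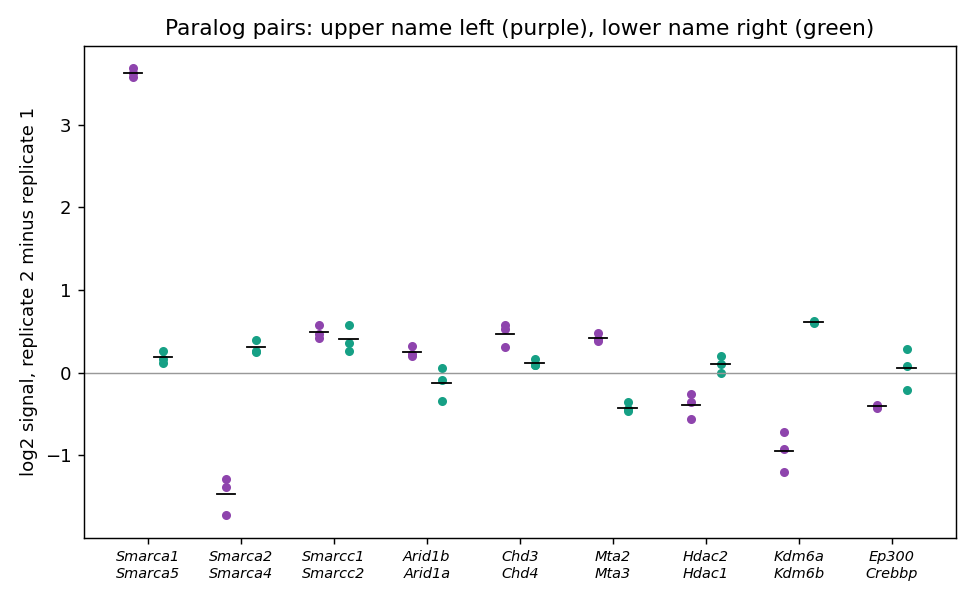
Difference in log2 signal, replicate 2 minus replicate 1, for 9 pairs of members; each point is 1 of the 3 groups, the bar is their mean, and within a pair the gene named above is on the left in purple and the gene named below on the right in green. Smarca1 lies far above Smarca5, while Smarca2 and Kdm6a lie below Smarca4 and Kdm6b.

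Other genes of the same complexes were examined as lists drawn up by name. Of 38 further remodeller subunits 16 passed the threshold in replicate 2 against replicate 1 (42.1%, where 60.1% of all genes tested passed), 7 higher and 9 lower, with a median of -0.07. The lower ones of smallest p were Dpf3, Chd1l, Baz1a and Dpf1. Dpf3, an alternative BAF45 subunit, was dim on all 3 replicate 2 arrays and at least 3.51-fold lower there. Chd1l (ALC1), Baz1a (ACF1, a partner of SNF2H) and Dpf1 differed by -1.11, -0.74 and -0.74. The higher ones of smallest p were Bcl7c, Dpf2, Rbbp7, a histone chaperone of NuRD, and Trrap, a scaffold of TIP60, which differed by 0.95, 0.65, 0.46 and 0.38.

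Of 39 further histone modifiers 15 passed (38.5%, again where 60.1% of all genes tested passed), 6 higher and 9 lower in replicate 2, with a median of 0.08. Kdm7a, Dpy30, a partner of WDR5 in MLL and SET1 complexes, Sap30 of the SIN3 complex and Kat2b (PCAF) were the lower ones of smallest p, at -1.73, -1.70, -1.61 and -0.88. Rcor2 and Rcor3, which belong to the CoREST family around LSD1, Kdm4a and Hdac11 were the higher ones, at 1.22, 0.84, 0.69 and 0.60. These 8 genes and the 8 remodeller genes above also passed with quantile normalization in the same direction. Hdac11 was weak and its replicate numbers overlapped, with 49.7 to 82.4 in replicate 2 against 33.0 to 51.1 in replicate 1. Only 2 of its replicate 1 arrays were well above background.

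The comparison for which the study was set up, between the cultures labelled Gadd45a, G39A and Flag, gave no member past the threshold. The Gadd45a probe itself was not higher in the Gadd45a group, as given above. In limma's test across all 6 arrays 0 of the 46 members and 0 of the 15618 genes tested (0%) passed for Gadd45a against Flag, for G39A against Flag and for Gadd45a against G39A. No member had an unadjusted p under 0.05 in any of the 3, where the SE also holds the difference between replicate numbers. With the replicate number as a block 0 members and 0 genes (0%) passed again. An unadjusted p under 0.05 was seen for 2 members for Gadd45a against Flag, 0 for G39A against Flag and 4 for Gadd45a against G39A. Of the 15618 genes tested 1354, 444 and 1392 had such a p, so the member counts are a description and single out no member. The lowest adjusted p of a member with the block in limma was 0.50, 0.99 and 0.52 in these 3 comparisons. With slide as a random block 15 genes (0.096%), 3 genes (0.0192%) and 7 genes (0.0448%) passed, and 0 members.

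The members with an unadjusted p under 0.05 in the block model were Smarca1, Smarca2, Chd1 and Kdm5b. Smarca1 was lower in Gadd45a than in Flag by a log2 difference of -0.36 in replicate 2 and -0.31 in replicate 1, a mean of -0.34 ± 2.11 without the block and ± 0.09 with it (SE; adjusted p = 0.50 with the block in limma). Smarca2 differed by -0.67 in replicate 2 and -0.33 in replicate 1, a mean of -0.50 with a block SE of 0.14 (adjusted p = 0.522 in limma). The Gadd45a array was thus below the Flag array of its number for both genes, and also below the G39A array, by -0.31 and -0.21 for Smarca1 and by -0.70 and -0.25 for Smarca2. Chd1 was higher in Gadd45a than in G39A by 0.22 in replicate 2 and 0.31 in replicate 1, and Kdm5b by 0.39 and 0.23. None of these passed after adjustment, and the comparisons of Gadd45a and G39A with Flag share the Flag arrays.

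Differences within a replicate number were small. In Gadd45a against Flag, 20 members were higher and 26 lower in replicate 2, and 17 were higher and 29 lower in replicate 1. Only Smarca2 in replicate 2 differed by 1.5-fold, 1 of 46 members where 9.85% of all genes tested did, and 0 members did so in replicate 1, where 5.42% of all genes did. The same direction in both numbers was seen for 9 members that were higher and 18 that were lower. The member median was -0.02 in replicate 2 and -0.04 in replicate 1, and that of all genes tested -0.00175 and -0.0392. Shares of all genes by direction were not computed. The counts by direction here and in the other comparisons below thus say nothing particular about the members.

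In G39A against Flag, 15 members were higher and 31 lower in replicate 2, and 16 were higher and 30 lower in replicate 1. The only member past 1.5-fold was Hdac9 in replicate 1, at 2.59 against 0.00 in replicate 2. Of all genes tested 3.78% were past 1.5-fold in replicate 2 and 7.01% in replicate 1. The direction was shared by 3 members that were higher and 18 that were lower, and the share among all genes was not computed. The member median was -0.05 in replicate 2 and -0.10 in replicate 1, and that of all genes tested -0.00215 and -0.0495. Apart from Hdac9 the members lay between -0.34 and 0.13 in replicate 2 and between -0.38 and 0.41 in replicate 1.

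In Gadd45a against G39A, 21 members were higher and 25 lower in replicate 2, and 30 were higher and 16 lower in replicate 1. Chd7 (0.65) and Smarca2 (-0.70) were past 1.5-fold in replicate 2, and Hdac9 (-2.74) in replicate 1. Of all genes tested 7.03% were past it in replicate 2 and 8.78% in replicate 1. Chd7 differed by 0.21 in replicate 1 and Smarca2 by -0.25, so that no member was past 1.5-fold in both numbers of any comparison. The direction was shared by 16 members that were higher and 11 that were lower, and the share among all genes was not computed. The member median was -0.02 in replicate 2 and 0.05 in replicate 1, and that of all genes tested 0.00223 and 0.00587. Each of these within-number values compares 1 array with 1 array and has no test. In replicate 1 every difference from G39A, or of G39A from Flag, is also one between slides.

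**Figure D5:**
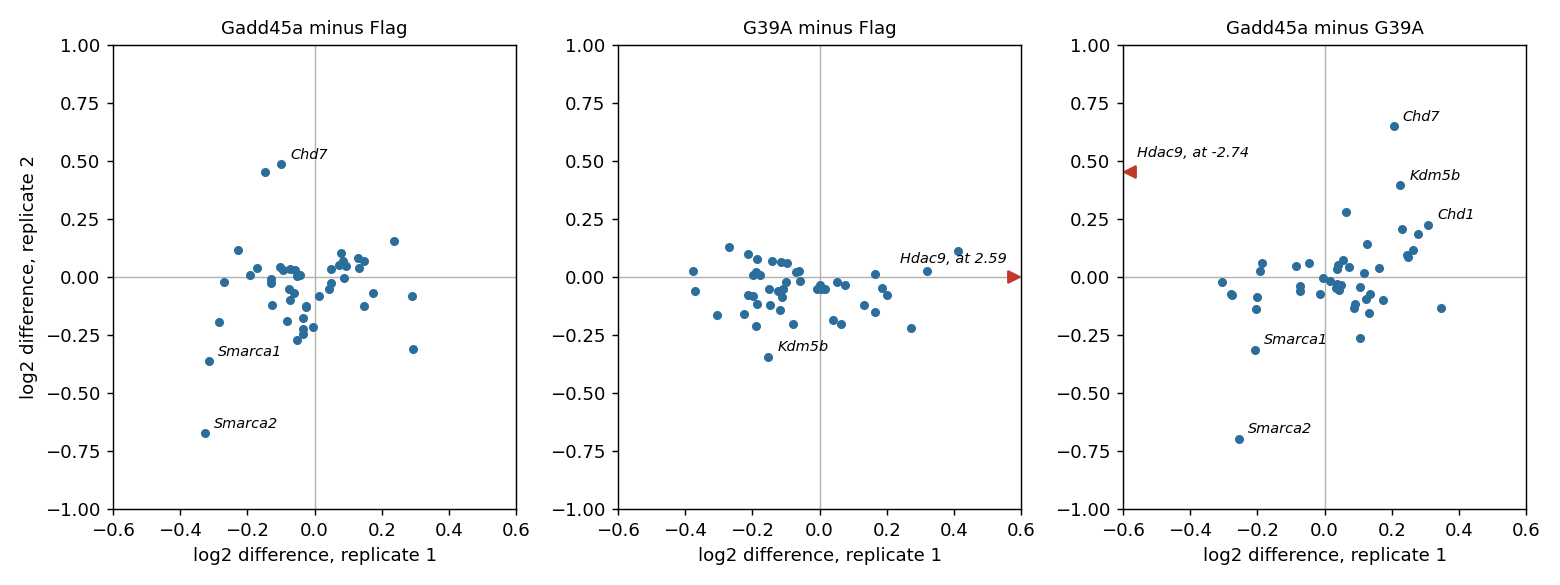
Difference in log2 signal of each member in replicate 1 (horizontal axis) and replicate 2 (vertical axis) for Gadd45a minus Flag, G39A minus Flag and Gadd45a minus G39A; red arrowheads mark Hdac9 where it lies beyond the horizontal axis, at the value written beside it. Most members lie near 0 on both axes, and Smarca1 and Smarca2 lie below 0 on both in the comparisons of Gadd45a with Flag and with G39A.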

How the data were processed

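Per the labels' protocols, total RNA was amplified and labelled with Cy3 and hybridised to Agilent 1-colour mouse arrays. Per the file headers, the deposited intensity of each spot is the processed signal, background-subtracted and detrended within the array and not normalized between arrays. Per the submitters' processing notes, it was made with Agilent Feature Extraction 10.7. The authors' value table, deposited on a log2 scale, was used only as an alternative. Probe coordinates are in mm9, per the file headers.

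Control spots and spots marked as outliers (100 to 161 per array) were left out and the spots of each of 41174 probes were averaged. The 75th percentile of log2 signal was subtracted from each array. Scaled signal is that value returned to the linear scale at the mean percentile, and levels of different probes are not comparable. A gene entered the group comparisons when both arrays of 1 or more groups had its probe well above background (15618 genes), and replicate 2 against 1 when it was so on all 3 arrays of at least 1 number (16032 genes). A gene dim on all arrays of a number has only a bound there, set at the lowest signal well above background or its own signal where higher.

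limma 3.58.1 in R 4.3.3 (lmFit, eBayes) was run, and p-values were adjusted by Benjamini-Hochberg across every gene tested, at a threshold of 0.05. Groups were compared over all 6 arrays without covariates (3 residual degrees of freedom). Replicate 2 was compared with 1 with group as a term (2 residual degrees of freedom), so p-values rest on few arrays, whose number limits the precision (median SE 0.10, log2). Exact permutation tests used SciPy 1.17.1, and the fits were tested on simulated data. Same-numbered arrays deviated together in all 3 pairs of groups (r of deviations 0.913 to 0.916). With 2 arrays a group this r only restates the difference between the numbers. The numbers were taken as pairing from it and from the slides, although the G39A replicate 1 array shared no slide. Alternatives were the background correction, the normalization, the authors' table, the filter on dim probes, the mean of a gene's probes, arrays left out, and replicate number or slide as a block. All 46 members are named, with 4 further genes each way of smallest p from each of the lists of other remodeller subunits and histone modifiers, label-check genes and defining markers. The members and lists were chosen with earlier results of these data known.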

Additional observations from a re-analysis of the deposited data

Results flagged for a closer look

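Hdac9 moved one way in some groups and the other way in another. Its difference between replicate 2 and replicate 1 was 1.73 (log2) in Gadd45a, -1.46 in G39A and 1.13 in Flag, each from 1 array against 1 array, and the difference between groups was not tested. The value rests on the G39A replicate 1 array, which read 378 where the other 5 arrays read 56.6 to 188. The 2 other Hdac9 probes above background on 3 or 4 arrays were not high on that array.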

How the results depend on the processing

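The count of 24 members that passed in replicate 2 against replicate 1 was 23 with normexp and quantile normalization, 21 with quantile normalization or the authors' table, 25 with probes above background on all 6 arrays, 24 with the mean of a gene's probes, 28 without the group term and 27 with slide as a random block, which was added after seeing the data and run without the group term. It was 10 with no filter on dim probes, where all 27594 gene names were tested and 7321 passed. It was 8 with a 1.5-fold minimum added. Of all 16032 genes, 9640 passed in the fit that gave 24 members, and 6372 with the 1.5-fold minimum. Between 9425 and 9915 passed with the other normalizations, the authors' table, no group term or slide as a block. With probes above background on all 6 arrays 8587 of 14084 genes passed, and with the mean of a gene's probes 9489 of 16044. The share of all genes was thus also lower with no filter, and the count of 10 says nothing particular about the members. With an array left out the count of members lay between 13 and 17, lowest without either Gadd45a array. Leaving out either array of a group removes its pair. Of the 24 members, 11 passed in all 6 such fits. Of the 22 members that did not pass, Arid1a, Arid2, Pbrm1, Mta1, Hdac9, Kdm4b, Wdr5 and Crebbp passed under at least 1 alternative. For Hdac9 and Crebbp the mean of a gene's probes includes probes not above background on all 6 arrays.

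The sign turned for members that did not pass the test. With normexp and quantile normalization together, quantile normalization alone and the authors' table, in that order, Smarcb1 was at -0.0495, -0.0711 and -0.0715, Chd4 at -0.0158, -0.0243 and -0.0278, Gatad2a at -0.0684, -0.0793 and -0.0822 and Hdac1 at -0.0792, -0.10 and -0.10. Smarcd1 was at 0.00574 with normexp and quantile normalization together, Crebbp at -0.00156 with quantile normalization and -0.00783 with the authors' table, and Ep400 at 0.11 with the mean of its probes. With an array left out Gatad2b ranged from -0.12 to 0.00554, Hdac9 from -0.17 to 1.43 and Crebbp from -0.0662 to 0.18. The cause was not tested.

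Between groups the count of members stayed at 0 in each of the 3 comparisons under every alternative run, with the replicate number as a block among them, and with an array left out it ranged from 0 to 0. Leaving out 1 array mixes the group difference with the replicate difference. Smarca1 then ranged from -2.15 to 1.47 in Gadd45a against Flag and from -2.10 to 1.58 against G39A, Smarca2 from -1.36 to 0.36 and from -1.34 to 0.39, Kdm5b from -0.18 to 0.80 against G39A and Chd1 from 0.18 to 0.36. The replicate block left the group differences of these genes as they were and narrowed their SE (for Smarca1, 0.09 with the block and 2.11 without it). Replicate 2 against 1 has no fit with both the group term and slide, and without the group term the correlation within slides was 0.05. Slide, replicate number and the absence of Pou5f1 signal in replicate 2 go together and cannot be told apart.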
